A study of Oncorhynchus mykiss with 20 samples.

Results

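The genes npc1l1, abcg5 and abcg8, whose products move sterols across the gut wall, were followed in the intestine of young rainbow trout (Oncorhynchus mykiss). They were chosen by gene symbol, and all 3 were found among the 25115 genes that the deposited transcripts form. RNA sequencing had been done on whole intestines in 20 libraries from all-female fish, in 4 groups of 5: Select at 65 days post hatch (dph), Commercial at 65 dph, Select at 20 dph and Commercial at 20 dph. Select is a selected strain named ARS-KO in the labels, and Commercial is a common commercial strain. All fish ate a commercial trout starter diet from first feeding on, and the 20 dph fish were sampled soon after it. From hatching the strains were held in separate raceways, so raceway and strain cannot be told apart. The study asked how the young intestine differs between strains and how it changes with age.

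In mammals, NPC1L1 sits in the brush border of enterocytes and carries cholesterol and plant sterols from the gut lumen into the cell. ABCG5 and ABCG8 are transporter subunits that must pair with each other, and the pair pumps sterols, plant sterols above all, back into the lumen or, in liver, into bile. In mammals the NPC1L1 gene responds to SREBP2, the transcription factor switched on when a cell is short of sterol, while the ABCG5 and ABCG8 genes respond to LXR, a receptor for oxidised sterols. These roles come from mammals and were not examined in trout here.

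Each gene was measured through 1 transcript with counts. Those of npc1l1, abcg5 and abcg8 are 5318, 2909 and 2608 bases long, and a second abcg8 transcript of 2527 bases had 0 counts in all 20 libraries. Their lowest expected counts (estimated numbers of read pairs) in any library were 2073 for npc1l1, 383 for abcg5 and 1135 for abcg8, out of library totals between 7314588 and 13682738. Salmon, the program that made the counts, divides reads that fit several transcripts; the count was whole to within 0.0005 in 7 of 20 libraries for npc1l1, 12 for abcg5 and 10 for abcg8. Of the 25115 genes 6926 had a gene symbol, and the others had a locus number alone. Copies of these genes under a locus number would not be in the sums, nor in any list matched by symbol. The same holds for copies among the 36555 transcripts that the gene table does not name. In the gene table abcg5 and abcg8 lie next to each other with no gene between them, and npc1l1 lies on another chromosome.

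The tissue label was checked against enterocyte genes. All 11 enterocyte genes found (of 15 symbols listed) were measured, among them the microvillus protein gene vil1 at 2253 ± 357 CPM in Select and 2150.3 ± 233 CPM in Commercial at 65 dph, and 2829 ± 544 CPM in Select and 3064 ± 183 CPM in Commercial at 20 dph (SD, n = 5 each). CPM are counts divided by library size, here adjusted by TMM factors. The metalloprotease gene mep1b was at 0 CPM in all 65 dph libraries. Liver genes (6 found of 17 symbols) summed to 11921 CPM in Select 20 dph replicate 1, against 25.1 to 114 CPM in the other Select 20 dph libraries and 21.5 to 302 CPM in Commercial at 20 dph. On the second principal component of log2 CPM, Commercial 65 dph replicate 2 (74.29) was far from the other Commercial 65 dph libraries (-74.91 to -65.54) and close to Select 65 dph replicate 5 (76.72), which was itself apart from the other Select 65 dph libraries (10.68 to 27.26). Values of the transporter genes without these 3 libraries are given beside the results they move.

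The sterol uptake gene npc1l1 fell with age in both strains, with the largest log2 change of the 3 transporter genes. At 65 dph it had 274, 226, 229, 255 and 243 CPM in Select and 259, 235, 349, 303 and 333 CPM in Commercial. At 20 dph it had 575, 659.7, 628, 846 and 1300.1 CPM in Select and 1103, 1147, 1294, 974 and 1193 CPM in Commercial. Every 65 dph library thus lay below every 20 dph library of either strain, and Select 20 dph replicate 5 had the highest value of the 20, while the other 4 Select 20 dph libraries lay below all 5 Commercial ones.

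The mean of npc1l1 was 245 ± 19.6 CPM in Select at 65 dph, against 802 ± 297 CPM in Select at 20 dph (SD, n = 5 each). It fell 3.27-fold between these ages (log2 fold change -1.71 ± 0.19 SE, edgeR adjusted p = 3.7e-06). In Commercial the mean was 296 ± 48.3 CPM at 65 dph, against 1142 ± 118 CPM at 20 dph, a 3.86-fold fall (-1.95 ± 0.19, edgeR adjusted p = 9.48e-07). These tests used edgeR's quasi-likelihood fit on all 32166 features with enough counts, a 2-sided p and Benjamini-Hochberg adjustment. A feature is a gene, or a single transcript that the gene table does not name, so shares of features are not shares of genes. Called means an adjusted p under 0.05. Age moved much else: 34.3% of all features were called in Select (17.9% lower at 65 dph, 16.4% higher) and 30.1% in Commercial (15.6% lower, 14.5% higher). Groups of the 2 ages did not overlap for 25.2% of features in Select and 21.1% in Commercial. Without the 3 libraries that lay apart npc1l1 was at -1.81 in Select and -1.85 in Commercial (edgeR adjusted p = 1.71e-05 and 9.09e-06). The age effects of the strains differed by 0.24 ± 0.26 on the log2 scale (Select minus Commercial), and by 0.04 without those 3 libraries. Neither difference was called (edgeR adjusted p = 0.947 and 0.979). For the difference over all 20 libraries edgeR called 0% of all features, with 1781 at an unadjusted p under 0.05, while DESeq2 called 93 and limma-voom 0. In whole tissue, fewer cells of a type and less RNA per cell cannot be told apart.

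Scaled for transcript length as TPM, so that genes can be set beside each other, npc1l1 averaged 77.3 ± 4.73 in Select and 89.2 ± 10.8 in Commercial at 65 dph, and 191 ± 84.3 in Select and 264 ± 39.5 in Commercial at 20 dph (SD, n = 5 each). By that TPM level it ranked 1245 among 22712 genes in Select and 1116 among 22610 in Commercial at 65 dph. At 20 dph it ranked 613 among 22693 genes in Select and 471 among 22537 in Commercial. It was therefore among the more abundant gut transcripts at both ages.

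**Figure D1:**
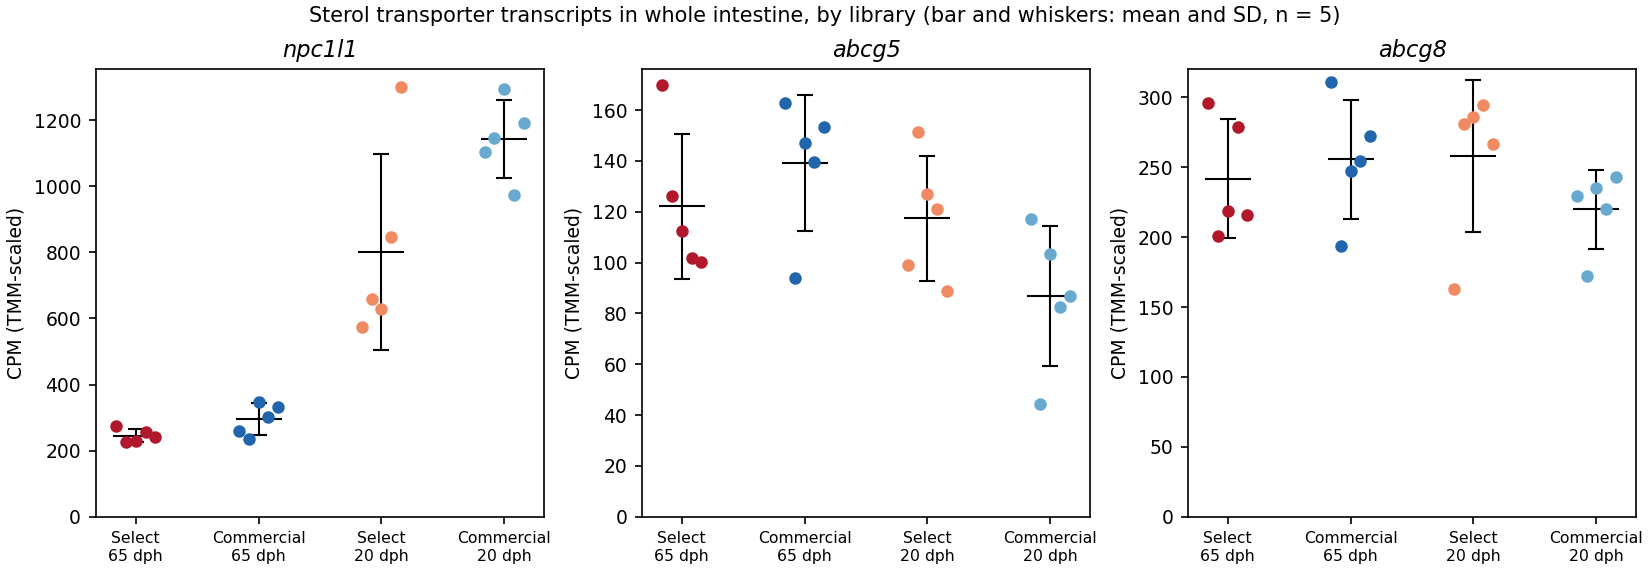
Each point is 1 library, the vertical axis is CPM scaled with TMM, and the bar and whiskers give the mean and SD of 5 libraries in each of the 4 groups. All 65 dph points of npc1l1 lie at or below 349 CPM and all 20 dph points at or above 575 CPM, while the groups of abcg5 and abcg8 overlap.

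Neither efflux gene was called lower at 65 dph. The efflux subunit gene abcg5 had 169.8, 126, 112, 102 and 100.2 CPM in Select and 163, 93.9, 147, 139.8 and 153 CPM in Commercial at 65 dph. At 20 dph it had 99.0, 151, 127, 121 and 88.7 CPM in Select and 117, 44.4, 104, 82.7 and 86.7 CPM in Commercial. The ages overlapped in both strains, with the lowest value of all in Commercial 20 dph replicate 2.

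In Commercial abcg5 rose to a mean of 139 ± 26.8 CPM at 65 dph, against 86.9 ± 27.4 CPM at 20 dph (SD, n = 5 each). The log2 fold change was 0.68 ± 0.22 SE (edgeR adjusted p = 0.0278), where 14.5% of all features were called higher. That call is narrow: it was lost when any 1 of 5 libraries was left out, Commercial 20 dph replicates 2 and 4 and Commercial 65 dph replicates 1, 3 and 5 (edgeR adjusted p between 0.0547 and 0.0668). Without the 3 libraries that lay apart the change was 0.82 and still called (edgeR adjusted p = 0.0121). In Select the mean was 122 ± 28.6 CPM at 65 dph and 117 ± 24.6 CPM at 20 dph, and the change of 0.06 ± 0.22 was not called (edgeR adjusted p = 0.875; approximate 95% interval -0.42 to 0.53). The age effects of the strains differed by -0.63 ± 0.32 (Select minus Commercial), and by -0.76 without the 3 libraries that lay apart. Neither difference was called (edgeR adjusted p = 0.887 and 0.483), so a rise in 1 strain alone is not shown.

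The partner gene abcg8 had 296, 201, 218, 279 and 216 CPM in Select and 311, 194, 247, 254 and 272 CPM in Commercial at 65 dph. At 20 dph it had 163, 281, 286, 295 and 267 CPM in Select and 229, 172, 235, 219.9 and 243 CPM in Commercial. All 4 groups overlapped. The value of 163 CPM, the lowest of the 20, came from Select 20 dph replicate 1, the library with liver transcripts, where the enterocyte genes also had their lowest sum, 10518 CPM; the part of this in the abcg8 value was not tested.

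The age change of abcg8 was -0.09 ± 0.16 in Select (edgeR adjusted p = 0.702; approximate 95% interval -0.44 to 0.26) and 0.22 ± 0.16 in Commercial (edgeR adjusted p = 0.352; -0.13 to 0.57). Neither was called. Without Select 20 dph replicate 1 the Select value was -0.23 (edgeR adjusted p = 0.249), and leaving out any 1 library gave -0.23 to -0.04. Without the 3 libraries that lay apart it was -0.19 in Select and 0.33 in Commercial (edgeR adjusted p = 0.326 and 0.068). The age effects of the strains differed by -0.31 ± 0.23 (Select minus Commercial; edgeR adjusted p = 0.917), and by -0.52 without those 3 libraries (edgeR adjusted p = 0.423). The direction in Select depends on the scaling: TMM factors were 1.035 to 1.19 at 65 dph and 0.818 to 0.962 at 20 dph. With library totals in place of TMM, a scaling tried after these factors were seen, the median of all features moved to 0.34 in Select and 0.33 in Commercial, against 0.07 and 0.05 with TMM. Then abcg8 stood at 0.17 in Select (edgeR adjusted p = 0.415) and was called at 0.48 in Commercial (edgeR adjusted p = 0.0223), abcg5 at 0.33 in Select (edgeR adjusted p = 0.215) and 0.95 in Commercial (edgeR adjusted p = 0.00163), and npc1l1 was still called, at -1.45 in Select and -1.69 in Commercial. That scaling put 27.7% of all features among the higher calls and 11.3% among the lower ones in Select, and 25.5% and 9.1% in Commercial.

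TPM carry no TMM scaling either, and on that scale abcg5 averaged 72.5 ± 14.7 in Select and 79.4 ± 12.9 in Commercial at 65 dph, and 51.6 ± 9.13 in Select and 37.9 ± 12.1 in Commercial at 20 dph (SD, n = 5 each). For abcg8 the TPM means were 162 ± 24.0 in Select and 165 ± 24.6 in Commercial at 65 dph, and 129.5 ± 34.5 in Select and 108 ± 13.3 in Commercial at 20 dph. Per length, npc1l1 was thus the highest of the 3 at 20 dph and abcg8 the highest at 65 dph, in both strains. The order of the group means in CPM was Commercial 20, Select 20, Commercial 65 and Select 65 dph for npc1l1, with overlap within each age. For abcg5 it was Commercial 65, Select 65, Select 20 and Commercial 20 dph, and for abcg8 Select 20, Commercial 65, Select 65 and Commercial 20 dph, and every neighbouring pair in these 2 orders overlapped.

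A ratio taken within a library needs no scaling between libraries. The TPM ratio of npc1l1 to abcg5 and abcg8 together ranged from 0.287 to 0.375 in Select and from 0.266 to 0.433 in Commercial at 65 dph. At 20 dph it ranged from 0.738 to 1.76 in Select and from 1.55 to 2.54 in Commercial. The ages did not overlap in either strain. This ratio compares transcript levels and adds both subunits of the pump, so it does not measure the balance of uptake and efflux.

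The geometric mean of this uptake to efflux ratio was 0.331 in Select at 65 dph, against 1.01 in Select at 20 dph, a 3.04-fold fall (log2 difference -1.60, exact permutation test, 2-sided, p = 0.00794, adjusted p = 0.0317). In Commercial it was 0.366 at 65 dph, against 1.82 at 20 dph, a 4.97-fold fall (-2.31, exact permutation test, p = 0.00794, adjusted p = 0.0317). This p is the smallest that 5 against 5 libraries allow, and the adjustment covers the 8 ratio comparisons made.

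The ratio of abcg5 to abcg8, whose products work as a pair, overlapped between all 4 groups. It ranged from 0.326 to 0.557 in Select and from 0.428 to 0.527 in Commercial at 65 dph, and from 0.295 to 0.543 in Select and from 0.229 to 0.453 in Commercial at 20 dph. abcg5 stood below abcg8 per length in all 20 libraries. The geometric mean rose to 0.48 in Commercial at 65 dph, against 0.337 in Commercial at 20 dph (log2 difference 0.51, exact permutation test, p = 0.0159, adjusted p = 0.0423). That call was lost when Commercial 20 dph replicate 2 or any of Commercial 65 dph replicates 1, 3, 4 and 5 was left out (exact permutation test, adjusted p between 0.0508 and 0.0794). In Select it was 0.445 at 65 dph and 0.407 at 20 dph (log2 difference 0.13, exact permutation test, p = 0.54, adjusted p = 0.54).

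**Figure D2:**
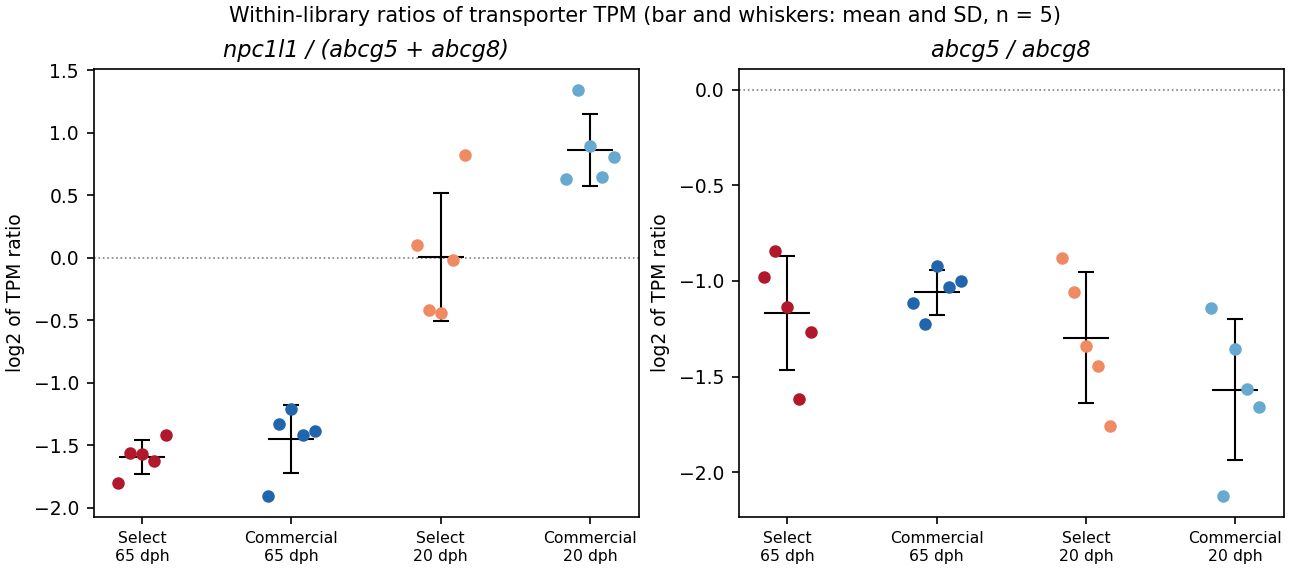
The vertical axes give the log2 of the TPM ratio in each library, for npc1l1 over abcg5 plus abcg8 and for abcg5 over abcg8; bar and whiskers are the mean and SD of 5 libraries. The first ratio lies at or below -1.21 in all 65 dph libraries and at or above -0.44 in all 20 dph libraries, and the second lies below 0 in all 20 libraries.

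Within groups, libraries with more abcg8 tended to have more abcg5. The correlation of their log2 CPM deviations from the group means was 0.63 over the 20 libraries, and 0.61 over 17 without the 3 that lay apart. The 2 values of a point share library, depth and scaling factor. Summed enterocyte genes were lowest of their group in Commercial 20 dph replicate 2 (16361 CPM) and Commercial 65 dph replicate 2 (11189 CPM). They were highest of their group in Select 65 dph replicate 1 (16428 CPM). But in Select at 20 dph the highest sum was in replicate 5 (17917 CPM), which had the lowest abcg5 of that group. The part of enterocyte content in this correlation was not tested. Among 32165 other features abcg8 ranked 212 in likeness to abcg5, so many others follow abcg5 more closely. For npc1l1 the same measure was -0.01 with abcg5 and 0.39 with abcg8, and over the 17 libraries it was -0.273 with abcg5 and -0.003 with abcg8.

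**Figure D3:**
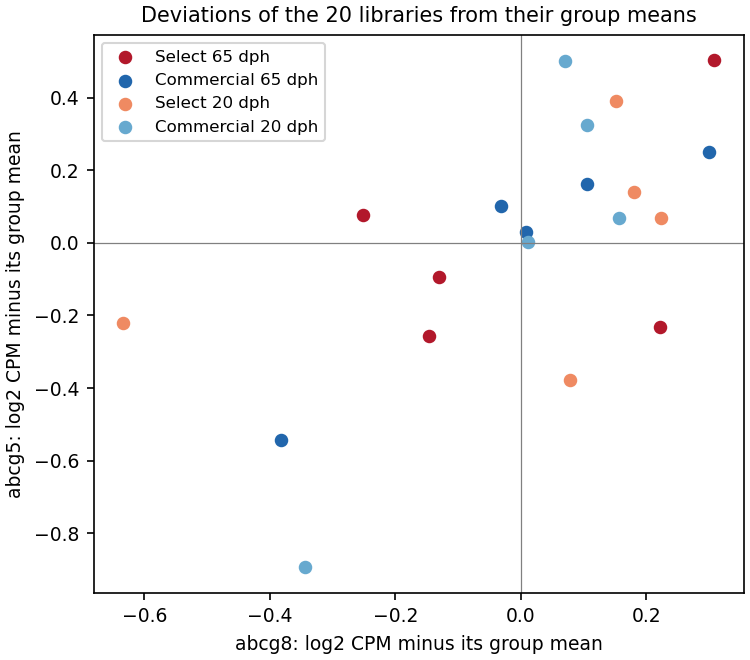
Each point is 1 of the 20 libraries, plotted as its deviation from the mean of its group in log2 CPM for abcg8 (horizontal) and abcg5 (vertical). Commercial 20 dph replicate 2 (-0.34 and -0.89) and Commercial 65 dph replicate 2 (-0.38 and -0.54) are low for both genes, and Select 65 dph replicate 1 (0.31 and 0.50) is high for both.

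Between strains the comparison asks whether transporter levels differed in Select from those in Commercial. None of the 3 genes was called at 20 dph, where edgeR called 0.159% of all features. After adjustment DESeq2 and limma-voom also called 0 of them. At an unadjusted p under 0.05 edgeR and DESeq2 each had 1 of the 3, npc1l1, and limma-voom had 2, npc1l1 and abcg5 (limma-voom unadjusted p = 0.0044 and 0.0491). Over all features edgeR had 3316 of 32166 at that level, DESeq2 3983 of 54906 and limma-voom 2718 of 32166. The means of npc1l1 were 802 CPM in Select and 1142 CPM in Commercial, a value 1.42-fold lower in Select (log2 fold change -0.51 ± 0.18 SE, edgeR adjusted p = 0.301; approximate 95% interval -0.90 to -0.13). Without Select 20 dph replicate 5, the library highest in npc1l1, it was -0.76 and called (edgeR adjusted p = 0.0445). Of 10 fits with 1 library left out only this 1 was called. Since that library is singled out by its npc1l1 value, the call is no evidence of a strain difference. Select 20 dph replicate 5 also had the highest count of srebf2, the gene of SREBP2, in its group, at 231 CPM against 82.8 to 142 CPM in the other 4. The value of 142 CPM came from Select 20 dph replicate 1, where npc1l1 was lowest in that group, at 575 CPM. A link between the 2 genes was not tested.

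At 20 dph abcg5 was at 0.43 ± 0.22 (edgeR adjusted p = 0.533; approximate 95% interval -0.04 to 0.91) and abcg8 at 0.23 ± 0.16 (edgeR adjusted p = 0.716; -0.12 to 0.58). With 1 library left out abcg5 ran from 0.27, without Commercial 20 dph replicate 2, to 0.57, and abcg8 from 0.16, without that same library, to 0.36, without Select 20 dph replicate 1. Without the 3 libraries that lay apart npc1l1 was at -0.40, abcg5 at 0.50 and abcg8 at 0.37 (edgeR adjusted p = 0.391, 0.389 and 0.259). All 3 then had an unadjusted p under 0.05, as had 3985 of all 32412 features tested without those libraries. The uptake to efflux ratio had a geometric mean of 1.01 in Select and 1.82 in Commercial at 20 dph (log2 difference -0.85, exact permutation test, p = 0.0317, adjusted p = 0.0635), which does not pass the threshold. Here too Select 20 dph replicate 5, at 1.76, was above the other 4 Select libraries, which reached 1.07. It was not past the limit used below for a value that stands apart. Without it the difference was -1.06 (exact permutation test, adjusted p = 0.0212), the only 1 called of 10 with 1 library left out. That library is singled out by its ratio, so this call is no evidence of a strain difference either.

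At 65 dph all 3 genes overlapped between strains. For npc1l1 the difference, Select minus Commercial, was -0.27 ± 0.18 (edgeR adjusted p = 0.895; approximate 95% interval -0.65 to 0.12). For abcg5 it was -0.19 ± 0.22 (edgeR adjusted p = 0.967; -0.66 to 0.28), and for abcg8 -0.08 ± 0.16 (edgeR adjusted p = 0.984; -0.43 to 0.27). None of the 3 was called, 0 had an unadjusted edgeR p under 0.05, and DESeq2 and limma-voom called 0. Of all features edgeR called 0% here, with 2000 at an unadjusted p under 0.05, while DESeq2 called 169 and limma-voom 0. The intervals for npc1l1 and abcg5 reach down to -0.65 and -0.66 on the log2 scale. Leaving out the 3 libraries that lay apart put npc1l1 at -0.36, abcg5 at -0.26 and abcg8 at -0.15. None of these was called (edgeR adjusted p = 0.49, 0.74 and 0.744).

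Genes around these transporters were counted from lists by symbol. Of all features 17.9% were called lower and 16.4% higher at 65 dph in Select, and 15.6% and 14.5% in Commercial. Of 15 symbols for sterol sensing and transcription 5 genes were tested, of which 1 rose and 2 fell in Select and 1 rose and 3 fell in Commercial. Their median log2 change was -0.19 in Select and -0.37 in Commercial, beside 0.07 and 0.05 over all features. With library totals as the scaling 2 fell and 1 rose in each strain. Over all features that scaling called 11.3% lower and 27.7% higher in Select, and 9.1% and 25.5% in Commercial. Without the 3 libraries that lay apart none rose and 2 fell in Select. Leaving them out put 14.1% of all features among the higher calls and 16.3% among the lower ones in Select, and 14.4% and 15% in Commercial.

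Among them srebf2 had 36.9 ± 7.86 CPM in Select at 65 dph, against 138 ± 56.7 CPM in Select at 20 dph (SD, n = 5 each; log2 fold change -1.90, edgeR adjusted p = 2.12e-05). In Commercial it had 42.7 ± 10.8 CPM at 65 dph, against 187 ± 38.2 CPM at 20 dph (-2.13, edgeR adjusted p = 7.66e-06). The gene insig1, whose product holds SREBP proteins in the endoplasmic reticulum, fell in both strains (-1.77 in Select and -2.09 in Commercial, edgeR adjusted p = 8.07e-06 and 1.5e-06). The LXR gene nr1h3 rose by 0.40 in Select and by 0.49 in Commercial (edgeR adjusted p = 0.0273 and 0.0104), and the Select call was lost without the 3 libraries. The gene insig2, a relative of insig1, fell in Commercial (-0.37, edgeR adjusted p = 0.0142) and measured -0.19 in Select (edgeR adjusted p = 0.187). Its call in Commercial was the weakest of the 3 lower ones there, and with library totals only 2 genes of this list were called lower.

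**Figure D4:**
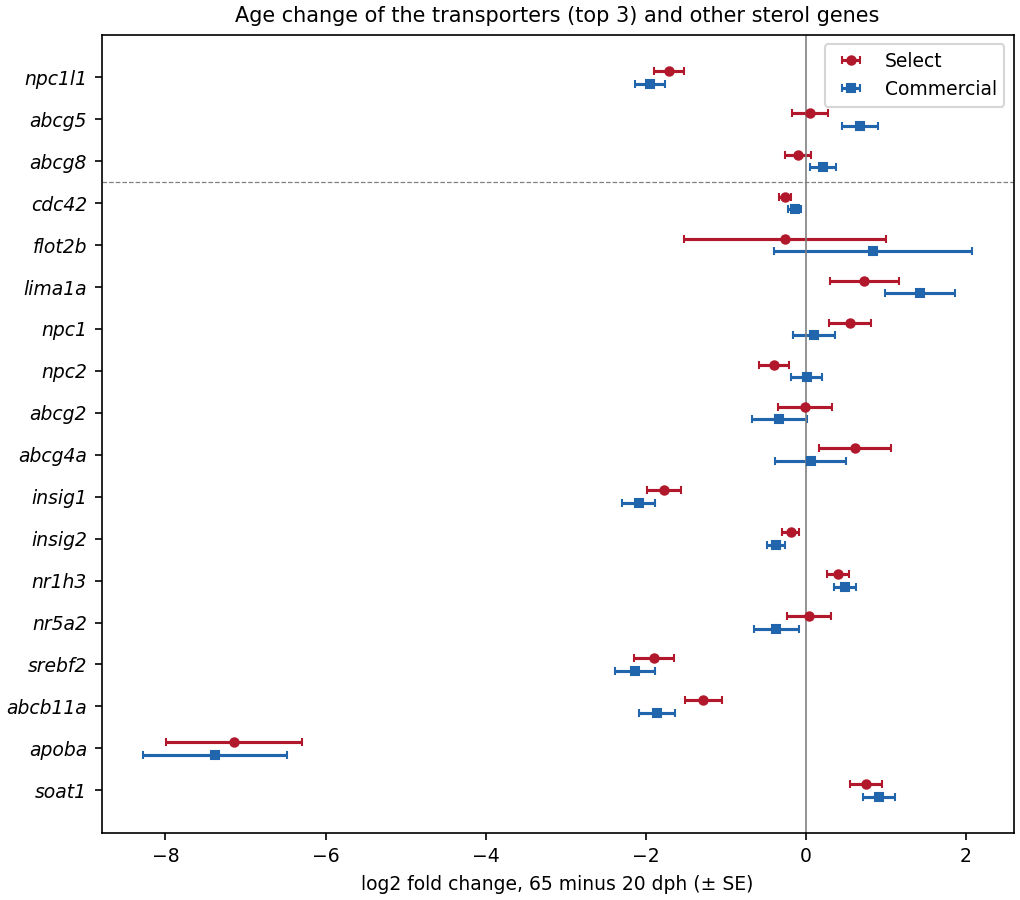
Points give the log2 fold change from 20 to 65 dph (65 minus 20) with its SE for Select and Commercial, for the 3 transporters above the dashed line and for the tested members of 5 lists below it. npc1l1 (-1.71 in Select, -1.95 in Commercial) lies near srebf2, insig1 and the bile salt pump gene abcb11a (-1.28 in Select, -1.86 in Commercial). abcg5, abcg8 and nr1h3 lie at or above -0.09 in both strains, as do lima1a, npc1, abcg4a and soat1. Shared regulation was not tested.

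Of 12 symbols for sterol entry and the endocytosis of NPC1L1, 5 genes were tested: 1 fell in Select and 1 rose in Commercial. They were cdc42, a small GTPase (-0.26 in Select, edgeR adjusted p = 0.0176; -0.14 in Commercial, 0.228), and lima1a, whose mammalian relative links NPC1L1 to myosin (0.73 in Select, edgeR adjusted p = 0.206; 1.43 in Commercial, 0.0186). With library totals, or without the 3 libraries that lay apart, no gene of this list was called lower. With library totals 1 was called higher in Select, where 27.7% of all features were called higher under that scaling. The lysosomal sterol carriers npc1 and npc2, named after their values were seen, were not called. For npc1 the means were 266 ± 37.0 CPM in Select and 298 ± 75.9 CPM in Commercial at 65 dph, and 183 ± 67.9 CPM in Select and 279 ± 88.8 CPM in Commercial at 20 dph (SD, n = 5 each).

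Of 4 symbols listed for other sterol efflux transporters, abcg2 and abcg4a were tested, and abca1 and abcg1 were not found by symbol. Whether abcg2 carries sterols was not examined. Of the 2 genes edgeR called 0 with age in either strain, with 0 at an unadjusted p under 0.05 and 0 by DESeq2 or limma-voom. For abcg2 the log2 change was -0.01 in Select and -0.33 in Commercial, and for abcg4a 0.61 and 0.06.

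For esterification and lipoprotein assembly 2 genes of 11 symbols were tested. soat1, which esterifies cholesterol for storage, rose by 0.75 in Select and by 0.91 in Commercial (edgeR adjusted p = 0.00674 and 0.00206). apoba, the structural protein of lipoproteins, fell in both strains (-7.14 in Select and -7.38 in Commercial, edgeR adjusted p = 7.81e-06 and 1.04e-05). The median of these 2 genes in Select was -3.19, and -2.46 without the 3 libraries that lay apart. For bile acid handling only abcb11a of 10 symbols was tested, a bile salt pump gene by its mammalian relative, and it fell in both strains (-1.28 in Select and -1.86 in Commercial, edgeR adjusted p = 0.000279 and 1.09e-05). Cholesterol synthesis genes were called lower at 65 dph in 10 of 10 tested members in each strain, with medians of -3.42 in Select and -3.29 in Commercial. That list was used in earlier work on these libraries and is no independent evidence, and in Commercial 9 of 10 were called with library totals or without the 3 libraries that lay apart.

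Enterocyte genes were lower in part at 65 dph, and the part of this in the npc1l1 fall was not tested. Of 11 tested, 0 rose and 3 fell in Select and 2 rose and 4 fell in Commercial. Over all features 34.3% were called in Select (17.9% lower) and 30.1% in Commercial (15.6% lower). The median log2 change of the 11 was -0.29 in Select and -0.4 in Commercial, beside 0.07 and 0.05 over all features. With library totals 3 of the 11 enterocyte genes rose and 3 fell in each strain. Over all features that scaling called 27.7% higher and 11.3% lower in Select, and 25.5% and 9.1% in Commercial. The median of the 11 was then -0.03 in Select and -0.14 in Commercial, beside 0.34 and 0.33 over all features. Their summed level ran from 10989 to 16428 CPM in Select and from 11189 to 15997 CPM in Commercial at 65 dph, and from 10518 to 17917 CPM in Select and from 16361 to 19725 CPM in Commercial at 20 dph. The median sum was 12638 CPM in Select and 13955 CPM in Commercial at 65 dph, and 17036 CPM in Select and 17691 CPM in Commercial at 20 dph. This sum leans on few genes, with anpepb and fabp2 the largest by group mean. The fabp2 means were 2745 CPM in Select and 2847 CPM in Commercial at 65 dph, and 4664 and 5248 CPM at 20 dph. For anpepb they were 5539 and 6084 CPM at 65 dph, and 5675 and 6361 CPM at 20 dph. The age change of anpepb was not called in either strain. Enterocyte genes called lower in both strains were mep1b, the fatty acid binding protein gene fabp2 (-0.76 in Select and -0.88 in Commercial) and the peptide transporter gene slc15a1a (-0.94 and -1.30). In Commercial vil1 was also called lower (-0.51), while the aminopeptidase gene anpepa (0.54) and the transcription factor gene cdx1b (0.59) were called higher. In Select these last 3 measured -0.33, 0.36 and 0.30 and were not called. Leukocyte and erythrocyte genes rose in 4 of 4 tested members in both strains, with sums of 119 to 159.6 CPM in Select and 106 to 156 CPM in Commercial at 65 dph, and 9.46 to 21.9 CPM in Select and 6.98 to 17.8 CPM in Commercial at 20 dph. Of 6 liver genes 5 fell in Select and 1 in Commercial, with medians of -5.76 and -1.93, and without the 3 libraries that lay apart 3 fell in Select with a median of -1.48 and 2 in Commercial. The pancreas gene cpa5 fell in both strains (-3.59 in Select and -3.88 in Commercial, edgeR adjusted p = 0.00764 and 0.00571). Of 3 goblet and enteroendocrine genes 1 fell in Select. In Commercial edgeR called 0 of them, with 1 at an unadjusted p under 0.05, as had 12902 of all 32166 features. DESeq2 and limma-voom called 0 of them. The muscle gene ckmb was called lower in Select (-5.84, edgeR adjusted p = 0.00722) and not in Commercial (-4.30, edgeR adjusted p = 0.123). It had 342 CPM in Select 20 dph replicate 1 and at most 5.77 CPM in the rest of that group. Without the 3 libraries that lay apart ckmb was called lower in Commercial (-4.65) and not in Select (-1.26).

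Genes of like pattern were sought among 4838 genes with a symbol and a mean log2 CPM of at least 1. The likeness of the 4 group means, each gene centred on its own mean in log2 CPM, was measured as a distance. Nearest to npc1l1 were pdyn (distance 0.141), srebf2 (0.197), hce23 (0.213), insig1 (0.222) and nsl1 (0.225). Both srebf2 and insig1 belong to the sterol sensing list, which was chosen with earlier results of these data known, so this is no independent evidence. The distances use group means alone. The SD within a group reached 1.51 in log2 CPM for pdyn (Commercial at 20 dph) and 0.475 for npc1l1 (Select at 20 dph), so the order of these 5 genes is not settled. Nearest to abcg5 were si:ch211-79k12.2 (0.038), prr13 (0.052), blnk (0.08), galcb (0.08) and hoxc12a (0.088), and nearest to abcg8 were mettl9 (0.014), sdr39u1 (0.018), ctsla (0.034), fbxo42 (0.043) and cab39l1 (0.047). The small distances of abcg8 describe genes that, like it, differed little between groups.

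**Figure D5:**
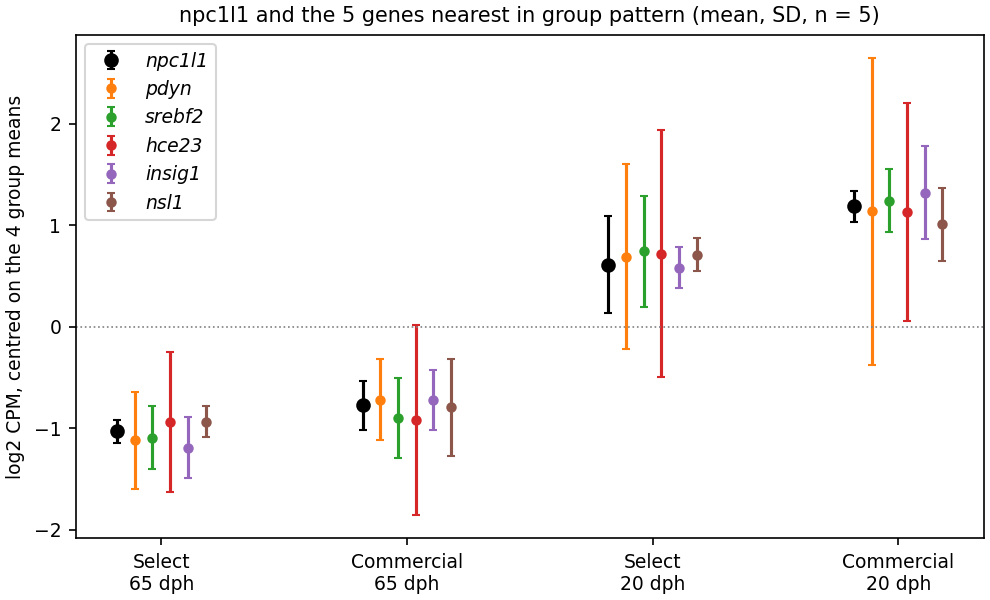
The vertical axis is log2 CPM centred on the mean of the 4 group means, with points for group means and whiskers for the SD of 5 libraries, for npc1l1 and the 5 genes nearest to it. npc1l1 runs from -1.03 in Select at 65 dph to 1.19 in Commercial at 20 dph, and srebf2 from -1.09 to 1.24.

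A second measure was the correlation of deviations from the group means over the 20 libraries, given as a description. It was highest with npc1l1 for tbc1d2 (0.758), rgs14b (0.753), acvr1l (0.745), cnrip1b (0.741) and gja13.2 (0.727). For abcg5 it was highest with sdr16c5b (0.888), the diamine oxidase gene aoc1 (0.825), pipox (0.782), hacd2 (0.775) and apoa-i-2 (0.747). For abcg8 it was highest with npdc1a (0.83), abhd17b (0.81), the monoamine oxidase gene mao (0.80), the microvillus gene vil1 (0.797) and itgb7 (0.789). Select 20 dph replicate 1, the library with liver transcripts, was lowest in its group for both abcg8 (163 CPM) and vil1 (1871 CPM). These rankings were not repeated without the 3 libraries that lay apart, so how far single libraries carry them was not tested. The points share library, depth and scaling factor, and the names nearest by this measure differ from those nearest in group pattern for each of the 3 genes.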

How the data were processed

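Whole-intestine RNA of 20 fry was measured by stranded poly(A) RNA sequencing, per the labels' protocols. Salmon 1.2.1 made the tables, per the submitters' processing notes. Its transcript set and the genome build were not given in the sources used here. The deposited expected counts are not normalised, and 34.3% of them were not whole. The deposited TPM are scaled by the authors for length and depth. Per the file headers each transcript also has an effective length, another deposited value used here in 1 alternative.

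Transcripts were paired with genes by accession without version through the RefSeq gene table of USDA_OmykA_1.1 (42376 of 78931 transcripts), used for names and gene order. The 36555 transcripts without a gene were kept as features of their own, and 66.5% of the counts fell on transcripts with a gene. Expected counts were summed per gene, rounded, filtered with filterByExpr and scaled with TMM. In edgeR 4.0.16 (R 4.3.3) the quasi-likelihood model, robust and with a mean for each of 4 groups, was fitted to 20 libraries, and p values were adjusted over 32166 features. SE were taken as fold change (log2) divided by the root of the F statistic, an approximation, and intervals use 16 residual degrees of freedom. They cover the spread between libraries, which had totals of 7314588 to 13682738. TPM ratios (0.01 added) had exact permutation tests (Python 3.11.15). The fit was tested on simulated data.

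Libraries were grouped by the labels, which call them biological replicates. Members, lists, tests and the naming rule (at most 4 called genes per list, and 5 like genes per measure) were chosen with earlier results of these data known. DESeq2 1.42.0, limma-voom (limma 3.58.1), other scalings, filters and samples were alternatives. The planned comparison with related proteins was not made, since no sequences were used here. A gene of the sterol sensing list is not reported here and was left out of its counts.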

Additional observations from a re-analysis of the deposited data

Results flagged for a closer look

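The abcg8 value of Select 20 dph replicate 1, 163 CPM, stood apart from the other 4 libraries of its group, which lay between 267 and 295 CPM. The gap to the nearest of them was 0.789 of the group's whole range. Of 20 groups of 5 values checked this was the only one past the limit of 0.71, and chance passes it in about 1 group of 20. Liver genes summed to 11921 CPM and enterocyte genes to 10518 CPM in that library, and their part in the abcg8 value was not tested.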

How the results depend on the processing

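The fall of npc1l1 with age was called in both strains under every alternative run, with log2 changes from -1.81 to -1.45 in Select and from -2.02 to -1.69 in Commercial. The rise of abcg5 in Commercial kept its direction (0.51 to 0.81 with 1 library left out, 0.82 without the 2 alike libraries) but was 0.66 (edgeR adjusted p = 0.0528) without a filter on low counts and 0.70 (0.0546) with only the groups compared. No strain difference of the 3 genes was called except npc1l1 at 20 dph without Select 20 dph replicate 5 (-0.76 to -0.41 with 1 library left out, -0.40 without the 3 that lay apart). In Select the abcg5 change ran from -0.10 to 0.16 with 1 library left out, so its sign is not settled, and the abcg8 change was 0.17 with library totals, against 0.48 in Commercial. The abcg5 to abcg8 ratio changed by 0.37 to 0.62 in Commercial with 1 library left out, and the strain difference of that ratio at 65 dph ran from -0.19 to 0.00. The strain difference of the uptake to efflux ratio at 20 dph ran from -1.06 to -0.73. The cause of these changes was not tested.

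Replicate numbers did not pair the libraries: same-numbered libraries had correlations of deviations between -0.09 and 0.081, and 1 of 5 correlated best with its own number in each comparison. With the replicate block no call of the 3 genes changed and 20 features were called between strains at 20 dph, against 51. Sign flips of 5 pairs cannot go below p = 0.0625, so the ratio changes of 0.51 and -2.31 in Commercial and -1.60 in Select had an adjusted p of 0.167 in the exact test with that block.

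The background between strains at 20 dph was 31 features without a filter, 503 with DESeq2, 29 with limma-voom, 66 without the 2 alike libraries of 65 dph, 73 without all 3 that lay apart, 2 with single transcripts as features and 5 to 46 with 1 library left out. At 65 dph it was 169 with DESeq2, 1 with only the groups compared, 53 without the 2 alike libraries, 71 without all 3 that lay apart and 0 to 125 with 1 left out. For the difference between age effects it was 93 with DESeq2, 2 and 1 without those libraries and 0 to 2 with 1 left out.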
